A study of Mus musculus with 36 samples.

Results

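The miR-322, miR-503, miR-351, miR-542 and miR-450 cluster of the mouse X chromosome was followed through small RNA libraries of epididymal white adipose tissue (eWAT) and liver. Its members were taken by name. They are mmu-miR-322-5p, mmu-miR-322-3p, mmu-miR-503-5p, mmu-miR-351-5p, mmu-miR-542-3p, mmu-miR-450a-5p, mmu-miR-450b-5p and mmu-miR-450b-3p, written below without the prefix, which makes 8 of the 1966 mature miRNAs in the count table. Where a mature miRNA had several lines, one per precursor, the line with the highest total was used. The libraries came from C57BL/6 wild-type males of an F1 generation, aged 24 weeks, which received chow until 6 weeks of age and a defined diet for 18 weeks after that. Groups were named HFLF (diet tag HFLFD), HF (HFD) and LF (LFD), with 6 libraries in each group of each tissue and 36 libraries in all. The treatment text of every sample names LFD, so the labels leave it undecided whether a group name gives the diet of the mouse or of its father, and groups are called by name only. Nothing beyond the titles says that libraries of a group are separate mice, and p-values therefore hold for the scatter among libraries, which may be technical.

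A miRNA is cut from a hairpin precursor, and its 5p and 3p arms are loaded into Argonaute to different extents. The loaded strand finds messenger RNAs mainly through its seed, bases 2 to 8, so miRNAs with the same seed can share targets. miR-322, the mouse counterpart of human miR-424, and miR-503 are known from mouse myoblasts and other cultured cells for slowing the cell cycle through cyclins and Cdc25a. miR-351-5p carries the seed of miR-125, and miR-542-3p is known in human cells for acting on survivin, an inhibitor of cell death. For the miR-450 miRNAs no role in adipose tissue or liver is stated here.

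The mature sequences are given because the seeds show which members can act together. Each is written 5′ to 3′ from RefSeq (GRCm38.p6) with the seed in capitals; all 8 members matched that table by name.
miR-322-5p: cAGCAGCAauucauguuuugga
miR-503-5p: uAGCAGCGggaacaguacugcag
miR-322-3p: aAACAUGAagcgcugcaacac
miR-351-5p: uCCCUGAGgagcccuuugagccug
miR-542-3p: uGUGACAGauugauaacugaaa
miR-450a-5p: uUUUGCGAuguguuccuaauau
miR-450b-5p: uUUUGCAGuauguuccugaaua
miR-450b-3p: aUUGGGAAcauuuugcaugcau
For comparison, carriers of the seeds of miR-322-5p and miR-351-5p from outside the cluster are shown.
miR-16-5p: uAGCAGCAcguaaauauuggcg
miR-125b-5p: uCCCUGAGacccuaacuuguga
miR-322-5p has the seed AGCAGCA, shared in the RefSeq table with 9 other mature miRNAs, among them miR-15a-5p, miR-15b-5p, miR-16-5p, miR-195a-5p and miR-497a-5p. The seed of miR-503-5p, AGCAGCG, differs from it in the last base and was found in no other mature miRNA of the table. The seed of miR-351-5p, CCCUGAG, is shared in the RefSeq table with 4 other mature miRNAs, miR-125a-5p, miR-125b-5p, miR-6367 and miR-6394. miR-450a-5p and miR-450b-5p differ at 7 of 22 bases, their seeds included. miR-450b-3p shares its first 18 bases with miR-450a-1-3p and differs from it at 2 of 22, so reads of these mature miRNAs could be split between them by the counting, and the level of miR-450b-3p is uncertain to that extent. miR-450a-5p is the product of a pair of hairpins and cannot be assigned to either.

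The 7 hairpins lie on the minus strand within 6353 bases, chrX:53047997-53054349 (GRCm38.p6), between the genes Hprt and Plac1. In the direction of transcription Mir322 comes first (chrX:53054255-53054349), Mir503 begins 295 bases further on and Mir351 996 bases further on. Mir542 begins at 4862 bases, and Mir450-2, Mir450-1 and Mir450b at 5982, 6105 and 6271 bases. RefSeq places Mir322, Mir503 and Mir351, 3 of the 7, inside the non-coding RNA gene C430049B03Rik (chrX:53053112-53057190). The hairpin of miR-322 is shown with its 5p arm and then its 3p arm in capitals, because the balance of these arms differed between the tissues.
Mir322: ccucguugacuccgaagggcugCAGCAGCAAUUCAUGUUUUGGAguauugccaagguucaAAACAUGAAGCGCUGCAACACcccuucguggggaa

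**Figure D1:**
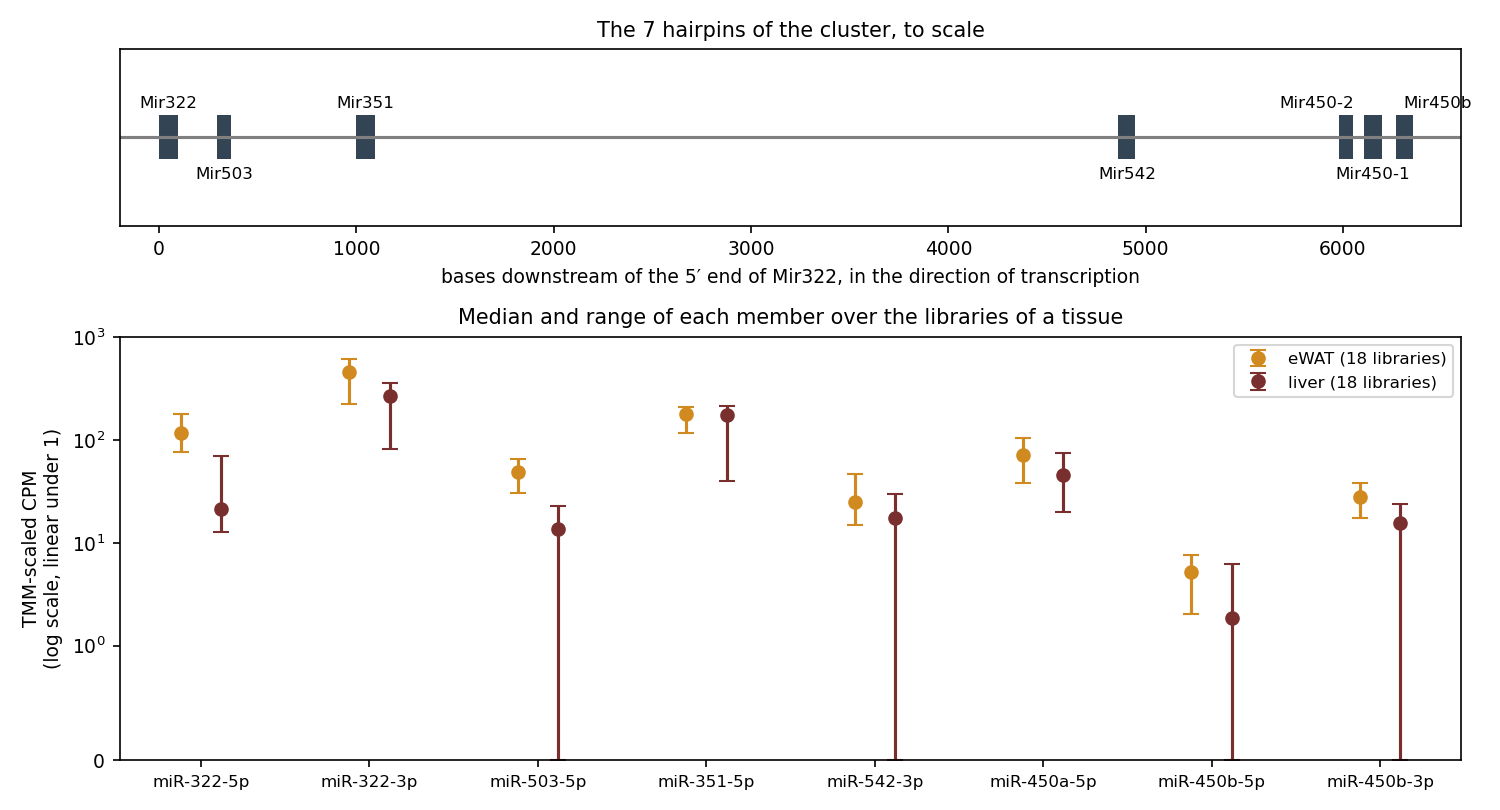
Top, the 7 hairpins of the cluster to scale, by distance in bases from the 5′ end of Mir322. Bottom, level of each member in TMM CPM (log axis, linear under 1), eWAT left and liver right, as the median (point) and the range (bar) of 18 libraries per tissue; miR-322-5p and miR-503-5p lie furthest apart between the tissues, while the medians of miR-351-5p are 177 in eWAT and 173 in liver.

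Library totals over the mature miRNAs ran from 7866583 to 18832842 counts. The 8 members made up 0.0767% to 0.188% of these counts in eWAT and 0.0156% to 0.0478% in liver. Levels below are CPM scaled by TMM over all 36 libraries, called TMM CPM. Of the hepatocyte markers, such as miR-122-5p, the summed level was 518 to 3597 in eWAT and 613387 to 991845 in liver, so the liver label had its defining markers. No list of adipocyte markers was used, so the eWAT label was not checked in that way. In liver, replicate 4 of LF and replicate 6 of HF stood apart. They had counts for 316 and 368 miRNAs, against 540 to 633 in the other 16 liver libraries, and both are absent from the authors' deposited log2 table of liver. In eWAT, replicates 1 and 4 of LF had summed levels of 11164 and 13511 TMM CPM of the epithelial miR-200 family, against 40.0 to 196 in the other 16. Most results of the members that rest on these libraries are given with and without them. In bulk tissue, fewer cells of a type and less RNA per cell cannot be told apart.

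The order of the levels was led by miR-322-3p and ended with miR-450b-5p in both tissues. In eWAT the medians over 18 libraries were 460 TMM CPM for miR-322-3p, 177 for miR-351-5p, 117 for miR-322-5p, 71.4 for miR-450a-5p, 49.2 for miR-503-5p, 27.7 for miR-450b-3p, 24.9 for miR-542-3p and 5.15 for miR-450b-5p. The first and the last were separated from their neighbours by ranges that did not overlap, and the neighbours in between overlapped. In liver, with replicate 4 of LF and replicate 6 of HF left out, the medians over 16 libraries were 265 TMM CPM for miR-322-3p, 176 for miR-351-5p, 46.9 for miR-450a-5p, 19.3 each for miR-322-5p and miR-542-3p, 15.8 for miR-450b-3p, 14.7 for miR-503-5p and 1.97 for miR-450b-5p. There, the sole gap between neighbours lay between miR-351-5p and miR-450a-5p. Members are 21 to 24 bases long, so a read covers a whole molecule, but ligation can favour some sequences and levels of different members compare only as counts.

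The makeup of the cluster differed between the tissues, a comparison within each library that no scaling between libraries touches. miR-322-5p held 11.7% to 16.4% of the counts of the 8 members in the 18 eWAT libraries, against 2.19% to 5.70% in the 16 liver libraries. miR-503-5p held 3.98% to 7.21% in eWAT, against 1.24% to 3.69% in those liver libraries. miR-351-5p went the other way, with 16.6% to 23.3% in eWAT and 27.1% to 37.2% in liver. Between eWAT and those 16 liver libraries the ranges of these 3 members did not overlap. miR-322-3p held 41.5% to 52.4% in eWAT and 43.4% to 54.4% in liver, ranges that overlapped. In the liver libraries set aside, the share of miR-322-5p was 25.4% in replicate 4 of LF and 22.7% in replicate 6 of HF, above every eWAT library. The share of miR-351-5p there was 14.4% in replicate 4 of LF, below every eWAT library, and 22.3% in replicate 6 of HF, within the eWAT range, so its direction did not hold in them. That of miR-503-5p was 3.11% and 0% in the same libraries, below every eWAT library.

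In eWAT over liver, miR-322-5p and miR-503-5p were several times higher in each diet group. With TMM scaling and all 36 libraries, miR-351-5p showed no difference that passed the test in any of them. All 8 members passed the filter on low counts in both tissues, and none of them was called lower in eWAT. In HFLF, 5 of 8 members were called higher in eWAT, where 29.4% of 681 tested miRNAs were. In HF it was also 5 of 8, beside 32.0% of all tested, and in LF 3 of 8, beside 31.4%. The member medians of log2 fold change were 1.05, 0.86 and 0.70 in HFLF, HF and LF, and the medians of all tested miRNAs were 0.27, 0.48 and 0.60. The libraries of the tissues did not overlap for 4, 5 and 2 of the members in HFLF, HF and LF, with eWAT higher, while the same held for 25.6%, 25.8% and 20.3% of all tested miRNAs. Calls are those of edgeR unless another tool is named.

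Markers of several other cell types were also higher in eWAT, while those of others were lower or were not called. In HFLF, 3 of 5 mesenchymal markers, 3 of 5 leukocyte markers, 1 of 2 endothelial markers and 2 of 3 tested striated muscle markers were called higher in eWAT, and in HF and LF the counts were the same except for 4 of 5 leukocyte markers. The summed mesenchymal level was 81687 to 168639 TMM CPM in eWAT and 12580 to 29225 in liver. Most of that sum was miR-143-3p, with a mean of 111714 out of 116875 in eWAT and 20290 out of 22952 in liver. Of the 5 mesenchymal markers only miR-199a-5p had a lower mean in eWAT, 181 against 191. The summed leukocyte level was 1336 to 3996 in eWAT and 430 to 878 in liver. The endothelial sum was 7437 to 18705 in eWAT and 3031 to 9872 in liver, ranges that overlapped. Of 5 epithelial markers, 3 were called lower in eWAT in HFLF and in HF, and 4 were called higher in LF. The LF calls include replicates 1 and 4 of eWAT, which had the high miR-200 family levels. Calls of these markers without those replicates are not given. None of 3 erythroid markers was called in any diet group. Of 6 germ cell and epididymis markers, 1 was called higher in each diet group, and 3 were called lower in HFLF. The part of these cell types in the members' differences was not tested.

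The member with the seed of miR-16, miR-322-5p, separated the tissues most clearly. It ran from 114 to 170 TMM CPM in eWAT of HFLF (median 139), against 15.9 to 29.2 in liver of HFLF (median 21.4). In HF it ran from 95.1 to 137 in eWAT (median 116), against 14.1 to 50.6 in liver (median 19.8). In LF it ran from 75.8 to 177 in eWAT (median 115), against 12.6 to 70.2 in liver (median 22.6). Each eWAT library of a group lay above each liver library of the same group, and the highest liver values of HF and LF were those of the libraries that stood apart. The log2 fold changes were 2.68 ± 0.33 in HFLF (SE; edgeR quasi-likelihood test, adjusted p = 1.94e-08), 2.31 ± 0.33 in HF (adjusted p = 2.82e-07) and 2.06 ± 0.33 in LF (adjusted p = 2.61e-06). Without replicate 4 of LF and replicate 6 of HF in liver they were 2.54, 2.50 and 2.52.

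miR-503-5p, whose seed is a base away from that of miR-322-5p, was also called higher in eWAT in each diet group. Its levels in eWAT were 45.3 to 64.5 TMM CPM in HFLF (median 52.8), against 7.30 to 17.8 in liver (median 15.4). In HF they were 30.5 to 61.1 in eWAT (median 51.6), against 0 to 20.8 in liver (median 11.6). In LF they were 33.1 to 61.5 in eWAT (median 39.8), against 8.59 to 22.8 in liver (median 11.8). No library of liver reached any eWAT library of its group. The value of 0 belonged to replicate 6 of HF, where 3 counts would be 0.159 CPM. The log2 fold changes were 1.85 ± 0.49 in HFLF (SE, adjusted p = 0.00198), 2.15 ± 0.50 in HF (adjusted p = 0.000464) and 1.60 ± 0.49 in LF (adjusted p = 0.00638).

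The 3p arm of miR-322, the most counted member, differed less. In HFLF it ran from 419 to 608 TMM CPM in eWAT (median 527), against 209 to 357 in liver (median 246). In HF it ran from 382 to 554 in eWAT (median 437), against 82.2 to 296 in liver (median 257). In LF it ran from 225 to 525 in eWAT (median 379), against 138 to 316 in liver (median 275), and the tissues overlapped. The log2 fold changes were 1.01 ± 0.23 in HFLF (SE, adjusted p = 0.000326), 0.95 ± 0.23 in HF (adjusted p = 0.000636) and 0.51 ± 0.22 in LF, which missed the threshold (adjusted p = 0.0568) but passed with DESeq2 (0.72, adjusted p = 0.000867) and, in edgeR, in 3 of 12 fits with a single library left out, those without replicate 1 or 3 of eWAT or replicate 1 of liver (smallest adjusted p = 0.0284). Without the epithelium-rich replicates 1 and 4 of eWAT LF the value in LF was 0.76 (adjusted p = 0.00837), and without the liver libraries that stood apart the values were 0.88, 0.59 and 0.32 in HFLF, HF and LF, with the same calls.

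miR-351-5p, with the seed of miR-125, lay at nearly the same level of TMM CPM in both tissues. It ran from 166 to 208 TMM CPM in eWAT of HFLF (median 182), against 148 to 202 in liver (median 173). In HF the range was 148 to 196 in eWAT (median 173), against 49.6 to 194 in liver (median 162). In LF the range was 118 to 186 in eWAT (median 154), against 39.9 to 212 in liver (median 191). Groups overlapped in each diet. The log2 fold changes were 0.09 ± 0.25, 0.21 ± 0.25 and -0.07 ± 0.25 in HFLF, HF and LF (SE), with adjusted p of 0.81, 0.513 and 0.837. The sign depended on the libraries and the scaling. Without the liver libraries that stood apart the values were -0.05, -0.16 and -0.33, of which the last passed the test (adjusted p = 0.0292). With CPM not scaled by TMM they were 1.22, 1.37 and 1.21, and all of them passed the edgeR test (adjusted p = 0.000282, 5.99e-05 and 0.000254).

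Of the members at the far end of the cluster, miR-450a-5p was called higher in eWAT in each diet group. Its medians were 84.9, 68.6 and 60.0 TMM CPM in eWAT of HFLF, HF and LF, against 49.4, 44.3 and 42.2 in liver. The log2 fold changes were 0.74 ± 0.24, 0.77 ± 0.24 and 0.60 ± 0.24 (SE), with adjusted p of 0.0112, 0.00786 and 0.0388. Without the liver libraries that stood apart the call held in HFLF (0.61, adjusted p = 0.00549) and was lost in HF (0.45, adjusted p = 0.0501) and in LF (0.40, adjusted p = 0.085). In LF it was also lost with limma-voom (adjusted p = 0.0724), without the filter (adjusted p = 0.0701), with summed lines (adjusted p = 0.061) and in 7 of 12 fits with a single library left out, against 2 of 12 such fits each in HFLF and HF.

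miR-450b was the least counted hairpin. Its 5p arm had 2.04 to 7.58 TMM CPM over the eWAT libraries and 0 to 6.22 over the liver libraries. By edgeR it was called higher in eWAT in HF and in no other diet group (log2 fold change 2.12 ± 0.67, SE, adjusted p = 0.00786), where eWAT ran from 3.51 to 7.58 and liver from 0 to 2.33; that the effect differs between diet groups was not shown, since neither test of a difference between the tissues in a diet effect called a member. DESeq2 also called it in HFLF (1.30, adjusted p = 0.0213). By edgeR with TMM the 3p arm was called higher in eWAT in HFLF and in no other diet group (1.29 ± 0.44, SE, adjusted p = 0.0143). In HFLF it had 27.6 to 37.9 in eWAT and 9.43 to 21.0 in liver. That call was lost in 1 of 12 fits with a single library left out (adjusted p = 0.0594). Without the liver libraries that stood apart the 3p arm was called in HF as well (0.55, adjusted p = 0.034). With DESeq2 size factors edgeR called it in LF too (1.04, adjusted p = 0.0403). DESeq2 called the 3p arm also in HF (0.83, adjusted p = 0.0275) and in LF (1.03, adjusted p = 0.0055), and limma-voom in LF (1.55, adjusted p = 0.0234). miR-542-3p was not called by edgeR in any diet group, with log2 fold changes of 0.78 ± 0.52, 0.56 ± 0.52 and 0.55 ± 0.52 (SE) in HFLF, HF and LF. At 14.7 to 46.8 TMM CPM in eWAT and 0 to 29.8 in liver, its libraries overlapped in each comparison. DESeq2 called it in HFLF (1.03, adjusted p = 0.0413). With CPM not scaled by TMM, edgeR called miR-542-3p and both arms of miR-450b in every diet group.

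**Figure D2:**
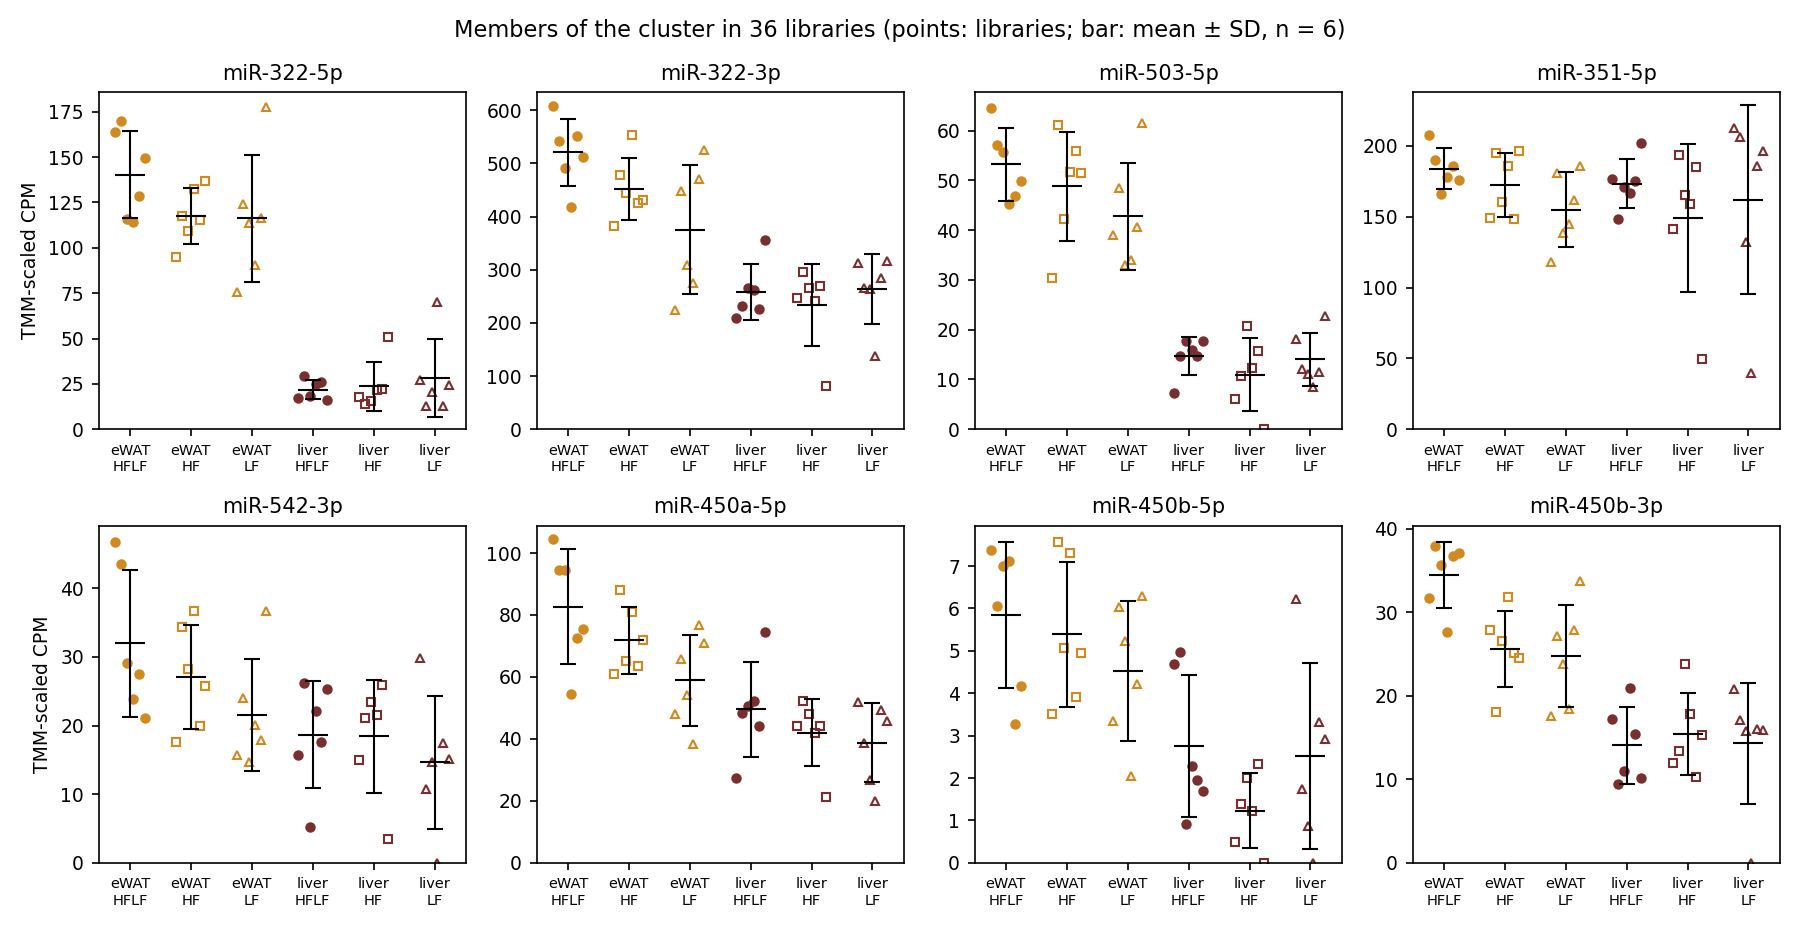
TMM CPM of the 8 members in each of 36 libraries, eWAT left of liver and HFLF, HF and LF from left to right within a tissue; bars are the mean ± SD of 6 libraries. All eWAT libraries lie above the liver libraries of their group for miR-322-5p and miR-503-5p, and single low or high points of liver HF and LF are the replicates that stood apart.

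**Figure D3:**
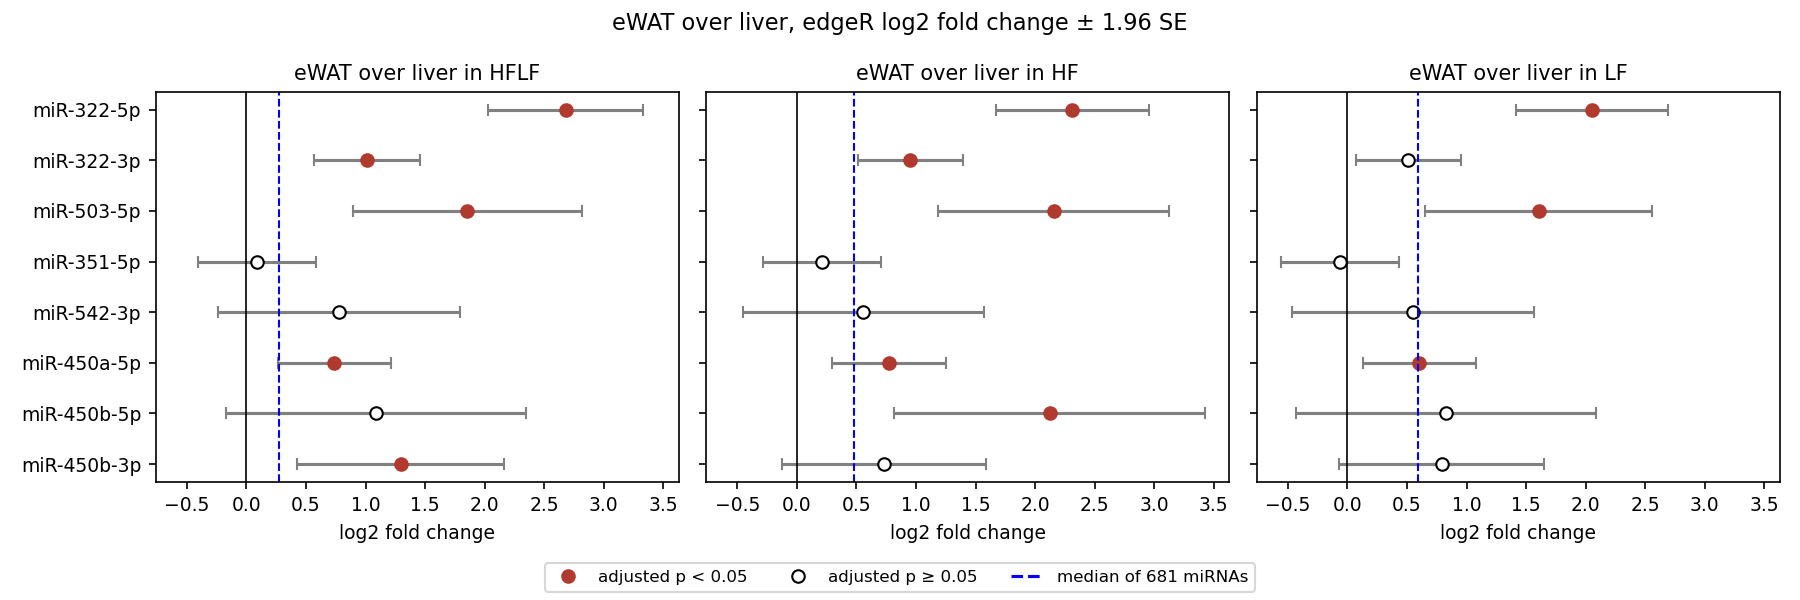
Log2 fold change of eWAT over liver in HFLF, HF and LF for each member (point) with 1.96 SE on either side (bar); filled points passed an adjusted p of 0.05 and the dashed line is the median of 681 tested miRNAs. miR-322-5p is furthest to the right in each diet group and miR-351-5p lies near 0.

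The arms of the miR-322 hairpin were used in different proportions. The 3p arm had more counts than the 5p arm in all 36 libraries. In eWAT the 5p arm held 18.9% to 26.8% of the counts of both arms (median 21.4%), against 4.27% to 11.2% (median 7.22%) in the 16 liver libraries. Replicate 4 of LF in liver had 33.7% (95% Wilson interval 30.9% to 36.7%) and replicate 6 of HF had 38.1% (35.8% to 40.4%), above every eWAT library. Put as counts of the 3p arm for each count of the 5p arm, the ratio was 2.73 to 4.28 in eWAT and 7.91 to 22.3 in the 16 liver libraries. The difference of the mean log2 ratio of 5p to 3p, eWAT minus liver, was 1.67 ± 0.23 in HFLF (SE, n = 6 each), and no libraries overlapped (2-sided exact permutation test, p = 0.00216, the smallest that 6 against 6 libraries allow, adjusted p = 0.039 over 18 comparisons). In HF it was 1.40 ± 0.55 and in LF 1.78 ± 0.53, which missed the threshold after adjustment (exact permutation test, adjusted p = 0.0682 in both). Without replicate 6 the difference in HF was 1.93, and without replicate 4 that in LF was 2.27 (exact permutation test, adjusted p = 0.0195 for each).

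Between diet groups no difference of the miR-322 arm ratio passed the test after adjustment. In eWAT the 5p arm held a median of 21.3% of the counts of both arms in HFLF, 19.8% in HF and 25.0% in LF. HF minus LF was -0.27 on the log2 scale, with an unadjusted p of 0.0281 (2-sided exact permutation test, adjusted p = 0.101).

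For the arm ratio of miR-450b no comparison of tissues or diet groups passed the test after adjustment. The largest difference between the tissues was that in HF, where eWAT minus liver was 2.03 ± 0.96 (SE, 2-sided exact permutation test, p = 0.013, adjusted p = 0.0682). Without replicate 5 of HF in liver it passed (2.46, exact permutation test, adjusted p = 0.0195). Without replicate 6 of HF in liver, which stood apart and had 0 counts of the 5p arm, it fell to 1.16 and did not pass. HFLF minus HF in liver was 1.82 ± 1.00 (exact permutation test, adjusted p = 0.166). It passed without replicate 5 of HF (2.26, exact permutation test, adjusted p = 0.039), and without replicate 6 of HF it fell to 0.95 and did not pass. HF minus LF in liver was -2.03 ± 1.08 (SE, exact permutation test, adjusted p = 0.166), and it passed in none of 12 tests with a single library left out. Replicate 4 of LF in liver had 0 counts of both arms, so its log2 ratio of 0 came from the pseudocount of 0.5 alone. That ratio enters each comparison with liver LF. The 5p arm of miR-450b held 8.20% to 29.6% of the counts of both arms in eWAT and 3.88% to 34.6% in the 16 liver libraries.

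**Figure D4:**
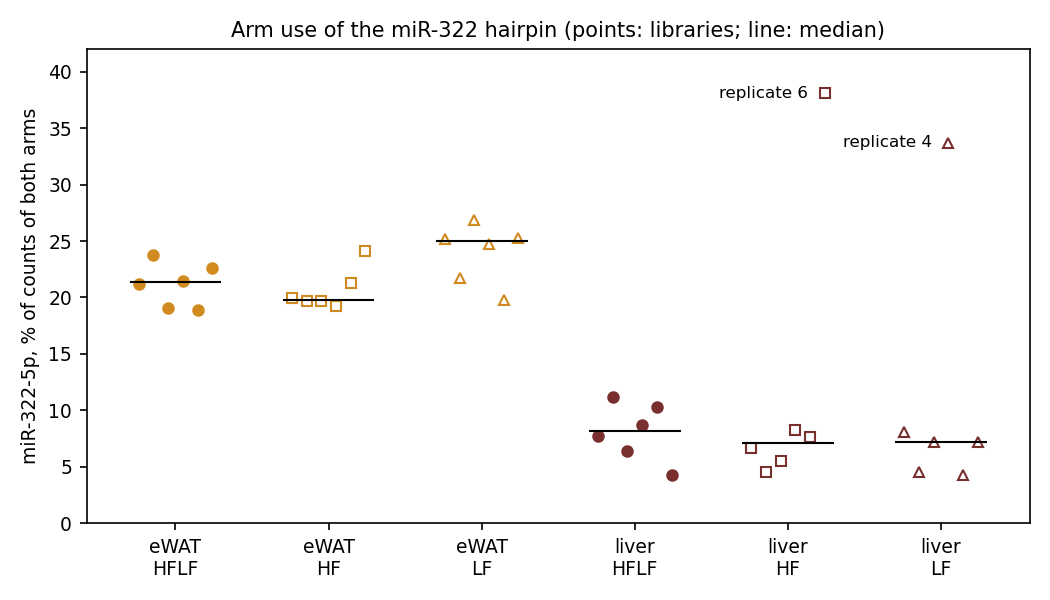
Share of miR-322-5p in the counts of both arms of its hairpin (y axis, percent) in 36 libraries, eWAT left and liver right, with a line at the median of 6 libraries. The eWAT libraries lie between 18.9% and 26.8%, 16 liver libraries between 4.27% and 11.2%, and replicate 6 of HF and replicate 4 of LF in liver above 33%.

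The less counted arms of the same hairpins gave 5 further mature miRNAs, all of which passed the filter in the fit of both tissues. miR-503-3p, the partner arm of miR-503-5p, was called higher in eWAT in each diet group, with log2 fold changes of 1.91 ± 0.48, 1.46 ± 0.47 and 2.11 ± 0.49 in HFLF, HF and LF (SE; adjusted p = 0.00123, 0.00951 and 0.000555); in HF the call was lost without replicate 5 of eWAT and without replicate 3 or 5 of liver (largest adjusted p = 0.0778). Its median was 8.81 TMM CPM in eWAT and 2.20 in liver. By edgeR with TMM miR-542-5p was called higher in LF and in no other diet group (2.15 ± 0.74, adjusted p = 0.0157). With DESeq2 size factors edgeR called miR-542-5p in HF as well (1.74, adjusted p = 0.0361). DESeq2 called it also in HFLF (1.60, adjusted p = 0.00682) and in HF (1.75, adjusted p = 0.00283), and limma-voom in HF (2.70, adjusted p = 0.00204). miR-351-3p, miR-450a-1-3p and miR-450a-2-3p were not called by edgeR in any diet group.

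miRNAs elsewhere in the genome with the seed of miR-322-5p lay on both sides, some higher and some lower in eWAT. Of the 11 miRNAs on the list of that seed, miR-497b does not carry it and miR-1907 had no sequence in the table, and 5 were tested. miR-195a-5p and miR-497a-5p were called higher in eWAT in each diet group, with log2 fold changes of 1.73 to 2.37 and 1.75 to 1.97. miR-16-5p, the most counted of them, was called lower in eWAT, by log2 fold changes of -0.57, -0.57 and -0.69 in HFLF, HF and LF, and miR-15a-5p by -1.08, -1.22 and -1.02; with CPM not scaled by TMM miR-16-5p was called higher in eWAT in all 3, while miR-15a-5p had 0.04, -0.06 and 0.29, none of which passed the test. The call of miR-16-5p in HFLF was lost with DESeq2 size factors (-0.31, adjusted p = 0.0808) and with the DESeq2 test (-0.31, adjusted p = 0.0875). The fifth tested, miR-15b-5p, had means of 422 TMM CPM in eWAT and 475 in liver. It was not called in any diet group, with log2 fold changes of -0.23, 0.0057 and -0.29 in HFLF, HF and LF. miR-195b had a count but did not pass the filter. For scale beside miR-322-5p, miR-16-5p had a median of 2517 TMM CPM in eWAT and 3827 in liver. miR-125a-5p and miR-125b-5p, with the seed of miR-351-5p, had medians of 11988 and 9353 in eWAT and of 7867 and 5792 in liver. miR-125b-5p was called higher in eWAT in each diet group (0.77, 0.79 and 0.83). By edgeR miR-125a-5p was called higher in HFLF (0.74, adjusted p = 0.00864) and in HF (0.82, adjusted p = 0.00369). In LF it was not called by edgeR (0.43, adjusted p = 0.128) but passed with the DESeq2 test (0.64, adjusted p = 0.00906). With single libraries left out, its call was lost in 4 of 12 fits in HFLF and in 1 of 12 in HF.

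Between diet groups in eWAT, the members lay higher in HFLF than in LF without any of them passing the test. The summed level of the 8 members ran from 870 to 1234 TMM CPM in HFLF, from 766 to 1080 in HF and from 541.8 to 1098 in LF, groups that overlapped, with means of 1053, 921 and 799 (n = 6 each). In HFLF over LF all 8 log2 fold changes were above 0, from 0.24 to 0.56 with a median of 0.41, beside a median of -0.04 over all 638 tested miRNAs. Members are cut from neighbouring hairpins and are not independent of each other. None of the 8 was called, the smallest adjusted p being 0.155, and 4 had an unadjusted p under 0.05. The same edgeR test called 0 of 638 miRNAs (0%), with 98 at an unadjusted p under 0.05; limma-voom called 0 and DESeq2 called 31, no member among them.

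The largest of these differences was that of miR-542-3p, which ran from 21.0 to 46.8 TMM CPM in HFLF (median 28.3), against 14.7 to 36.7 in LF (median 18.9). Its groups overlapped, and the log2 fold change was 0.56 ± 0.25 (SE, adjusted p = 0.26). miR-450a-5p ran from 54.5 to 105 in HFLF (median 84.9), against 38.2 to 76.7 in LF (median 60.0), a log2 fold change of 0.48 ± 0.17 (adjusted p = 0.164). miR-450b-3p ran from 27.6 to 37.9 in HFLF (median 36.2), against 17.5 to 33.8 in LF (median 25.5), a log2 fold change of 0.48 ± 0.17 (adjusted p = 0.155). miR-322-3p had 0.47 ± 0.17 (adjusted p = 0.169), miR-450b-5p 0.36 ± 0.29, miR-503-5p 0.31 ± 0.17, miR-322-5p 0.27 ± 0.17 and miR-351-5p 0.24 ± 0.12.

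The epithelium-rich libraries of LF had low sums of the members, and the differences were smaller without them. Replicates 1 and 4 of LF had 541.8 and 623 TMM CPM summed over the members, and the other 4 LF libraries averaged 908. They were also the lowest of the 18 eWAT libraries in the endothelial miR-126a arms, at 7437 and 7618 TMM CPM, against 11104 to 18705 in the rest. Without them the log2 fold changes of HFLF over LF ran from 0.07 for miR-322-5p to 0.45 for miR-542-3p, with adjusted p from 0.815 upward. The part of the endothelial and epithelial markers in these differences was not tested.

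HF over LF shares its LF libraries with that comparison and HFLF over HF shares its HFLF libraries. In HF over LF the log2 fold changes of the members ran from 0.01 to 0.33 (median 0.22; all tested -0.01), the smallest adjusted p was 0.867, and 0 of 638 miRNAs (0%) were called by edgeR, with 49 at an unadjusted p under 0.05. DESeq2 called 16 miRNAs there and limma-voom 0, none of them a member. In HFLF over HF they ran from 0.09 to 0.43 (median 0.20; all tested -0.02). miR-450b-3p was the one member with an unadjusted p under 0.05 (log2 fold change 0.43 ± 0.17, adjusted p = 0.982), with 27.6 to 37.9 TMM CPM in HFLF and 18.0 to 31.9 in HF, which overlapped. edgeR called 0 of 638 miRNAs (0%) there, with 21 at an unadjusted p under 0.05, and limma-voom and DESeq2 called 0.

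**Figure D5:**
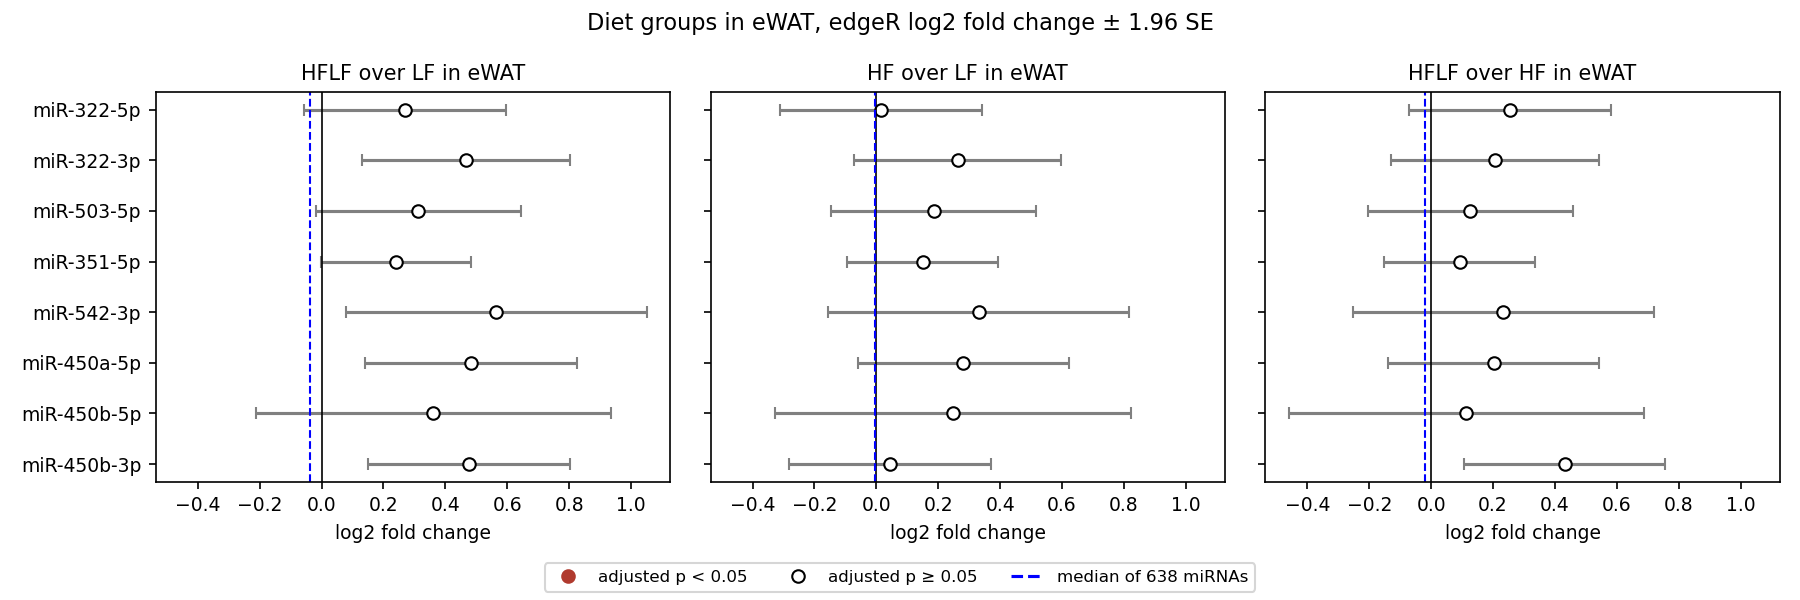
Log2 fold change of each member between diet groups in eWAT (point) with 1.96 SE on either side (bar); open points did not pass an adjusted p of 0.05 and the dashed line is the median of 638 tested miRNAs. In HFLF over LF the points lie between 0.24 and 0.56; the comparisons share libraries, and none of the points is filled.

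In liver the members showed no common direction between diet groups over all 18 libraries. The summed level was 553 ± 80 TMM CPM in HFLF, 494 ± 140 in HF and 538 ± 144 in LF (SD, n = 6 each). Over the 16 liver libraries without those that stood apart it was 563 ± 67 (SD). Log2 fold changes ran from -0.48 to 0.38 in HFLF over LF with 6 of 8 above 0, from -0.99 to 0.39 in HF over LF with 3 of 8 above 0, and from -0.31 to 1.22 in HFLF over HF with 5 of 8 above 0. edgeR called no member, and 0 of 478 miRNAs (0%), in each of these comparisons; 14, 16 and 5 miRNAs had an unadjusted p under 0.05, none of them a member, and limma-voom and DESeq2 called 0. Without the liver libraries that stood apart, edgeR again called no member and 0 of 488 miRNAs in each of these comparisons. Its unadjusted p was then under 0.05 for 34, 30 and 12 miRNAs, in the same order. Tests of a difference in the diet effect between the tissues called no member. For HFLF over LF, eWAT minus liver, the members ran from 0.14 to 0.62 with adjusted p from 0.586, beside calls for 1.91% of 681 miRNAs. For HF over LF they ran from -0.06 to 1.30 with adjusted p from 0.678, beside calls for 2.50%. No member had an unadjusted p under 0.05 in either, and DESeq2 and limma-voom called none of the members.

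Correlations between members were higher over the eWAT libraries than over the liver libraries, a difference that was not tested. Over the 28 pairs of members the median Pearson correlation of log2 TMM CPM in eWAT was 0.71, from 0.32 to 0.86, beside a median of 0.003 over all pairs of tested miRNAs. The closest pair was miR-322-3p and miR-351-5p. Without the epithelium-rich libraries the median over 16 libraries was 0.62, from -0.11 for the arms of miR-450b to 0.79, and the closest pair was miR-322-3p and miR-542-3p. In liver the median over 18 libraries was 0.52 and over the 16 libraries without those that stood apart 0.10. Over all pairs of tested miRNAs in liver the medians were 0.08 and -0.002. In the 18 liver libraries miR-322-5p ran against its own 3p arm (r = -0.81) and against miR-351-5p (r = -0.86); without the libraries that stood apart these were -0.41 and -0.24. These correlations are descriptions over libraries that share a scaling and a tissue. In liver miR-450b-5p had few counts, from 0 to 52. miR-503-5p, miR-542-3p and miR-450b-3p each had 0 counts in 1 of the liver libraries that stood apart.

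The non-members most like miR-322-5p across the 18 eWAT libraries were miR-708-3p (Pearson r = 0.87), miR-22-3p (0.85), miR-126a-3p (0.84), miR-139-3p (0.82) and miR-126a-5p (0.78), out of 630. Within that order the 3p arm of its own hairpin had 0.83 and miR-351-5p 0.81. Without the epithelium-rich libraries miR-708-3p (0.76), miR-22-3p (0.71), miR-126a-3p (0.71) and miR-139-3p (0.68) came first again, and miR-335-5p (0.67) took the place of miR-126a-5p. In the 18 liver libraries the list was miR-29c-3p (0.88), miR-29a-3p (0.88), miR-122-3p (0.87), miR-106b-5p (0.87) and miR-455-5p (0.86), out of 470. Without replicate 4 of LF and replicate 6 of HF none of these 5 was among the first 5, which were then miR-423-3p (0.68), miR-5101 (0.67), miR-3082-3p (0.66), miR-425-5p (0.63) and miR-542-5p, the other arm of a hairpin of the cluster (0.59).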

How the data were processed

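Small RNA from 18 eWAT and 18 liver libraries was made with the NEXTFLEX Small RNA-seq Kit v3, per the labels' protocols. cutadapt, Bowtie and the build GRCm38.p6 are named in the submitters' processing notes; their versions and settings are not stated there. In the table of 2118 lines that the authors deposited, counts stand per mature miRNA and hairpin, with CPM columns beside them, and log2 tables per tissue. The deposited CPM and log2 values were not used in tests; the deposited log2 tables list 5 members in eWAT and 3 in liver. Column codes were read as tissues and diet groups from their abbreviations.

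Counts of the line with the highest total per miRNA were tested with edgeR 4.0.16 in R 4.3.3 (TMM, filterByExpr with a minimum count of 10 and total of 15, robust quasi-likelihood F test, Benjamini-Hochberg adjusted p under 0.05 over all tested miRNAs). Tissue and interaction contrasts came from 36 libraries in 6 groups, diet contrasts from the 18 libraries of a tissue. Arm ratios used a pseudocount of 0.5 and a 2-sided exact permutation test. Alternatives were DESeq2 1.42.0, limma-voom (limma 3.58.1), other scalings, no filter, summed lines, a replicate block and left-out libraries. Scripts were tested on simulated data. Replicates differed far beyond counting error, with a chi-square per degree of freedom of at least 61.8. Intervals and floors of 3 counts cover counting error only; amplified reads lack molecular identifiers and are not independent. Named were all 8 members, the other arms of their hairpins, the miRNAs of the seed lists with a count, and the 5 non-members most correlated with miR-322-5p in each tissue. Members and lists were chosen with earlier results of these data known.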

Additional observations from a re-analysis of the deposited data

Results flagged for a closer look

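Over 60 groups of 6 libraries, 11 values stood so far from the other 5 of their group that a test for single outlying values (Dixon, 95%) picked them; chance picks about 1 in 20 groups, or 5%. Of these, 10 come from replicate 4 of LF and replicate 6 of HF in liver.

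In replicate 6 of HF in liver, miR-322-5p was high at 50.6 TMM CPM, with the others at 14.1 to 22.2. miR-322-3p was low at 82.2, miR-351-5p low at 49.6 and miR-450a-5p low at 21.4. The log2 ratio of the 5p to the 3p arm was -0.70 for miR-322, with the others at -3.46 or lower. For miR-450b that ratio was -8.66, from 0 counts of the 5p arm.

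In replicate 4 of LF in liver, miR-322-5p was high at 70.2 TMM CPM, with the others at 12.6 to 27.4, and miR-322-3p was low at 138. miR-450b-3p had no count (0), and the log2 arm ratio of miR-322 was -0.97, with the others at -3.51 or lower. These libraries also had fewer miRNAs with a count than the other liver libraries, and their endothelial miR-126a arms summed to 3031 TMM CPM in replicate 4 of LF and 3326 in replicate 6 of HF, against 6087 to 9872 in the other 16. What part these differences have in the values was not tested.

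The remaining value is miR-503-5p in replicate 1 of HFLF in liver, at 7.30 TMM CPM with the others at 14.6 to 17.8.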

How the results depend on the processing

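The number of members called higher in eWAT was 3 in LF and 5 in both HF and HFLF. In LF it was 5 with DESeq2 size factors, 5 with the DESeq2 test and 8 with plain CPM, 2 without the filter, 2 with summed lines, 2 without the liver libraries that stood apart and 4 without replicates 1 and 4 of eWAT LF. In HF it was 8 with plain CPM and 6 with the DESeq2 test, and in HFLF 8 and 7; the other whole-table alternatives gave 5 in both. Plain CPM moved the median log2 fold change of all tested miRNAs by 1.28 in LF, 1.18 in HF and 1.11 in HFLF, and DESeq2 size factors by 0.20, 0.14 and 0.23. Over all alternatives, no diet or interaction comparison called a member.

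For miR-351-5p, eWAT over liver in LF was 0.17 with DESeq2 size factors, 1.21 with plain CPM, 0.0059 without the filter, 0.16 with the DESeq2 test, 0.031 with limma-voom, 0.072 with the replicate block and 0.066 without replicates 1 and 4 of eWAT LF, and -0.24 to 0.050 with single libraries left out. In HF it was -0.16 without the liver libraries that stood apart and -0.029 to 0.31 with single libraries left out, and in HFLF -0.048 and -0.081 to 0.14. With plain CPM, miR-16-5p was 0.57 in HFLF, 0.59 in HF and 0.60 in LF, and miR-15a-5p 0.043 in HFLF and 0.29 in LF.

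In eWAT, HF over LF of miR-322-5p was -0.0085 with DESeq2 size factors, -0.0086 with the DESeq2 test, -0.034 without the filter, -0.040 with summed lines, -0.012 in the fit of those groups alone, -0.17 without replicates 1 and 4 of LF, and -0.13 to 0.13 with single libraries left out. miR-450b-3p was -0.0041 without the filter, -0.012 with summed lines, -0.13 without replicates 1 and 4 and -0.092 to 0.11 with single libraries left out, and miR-450b-5p was -0.010 without replicates 1 and 4.

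Without all 4 libraries that stood apart, the arm difference of miR-322 between eWAT and liver was 2.23 in LF and 1.93 in HF, both past the threshold; in liver it was 0.38 for HFLF over LF and 0.30 for HFLF over HF. That of miR-450b was 0.36 between the tissues in LF and 0.24 for HFLF over LF in liver. With single libraries left out, the miR-322 arm difference ran from 1.19 to 1.93 in HF and 1.57 to 2.27 in LF between the tissues, from -0.00031 to 0.10 for HFLF over HF in eWAT, and in liver from -0.33 to 0.38 for HFLF over LF, -0.44 to 0.30 for HFLF over HF and -0.42 to 0.61 for HF over LF. That of miR-450b ran from -0.32 to 0.20 in HFLF, 1.16 to 2.46 in HF and -0.58 to 0.23 in LF between the tissues, from -0.24 to 0.067 for HFLF over LF in eWAT, and in liver from -0.57 to 0.24 for HFLF over LF and 0.95 to 2.26 for HFLF over HF. The cause of these changes was not tested.

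The labels do not say whether equal replicate numbers mark the same mouse. Of 6 same-numbered pairs per comparison, at most 2 correlated above 0.1. Such correlations cannot decide it, since libraries of the same mouse need not deviate from their group means alike. With the replicate block the number of members called was 3 in LF, 5 in HF and 5 in HFLF, and 0 elsewhere, and the call of miR-542-5p in LF was lost (adjusted p = 0.0571). Totals of 7866583 counts and more leave members under about 2 TMM CPM, such as miR-450b-5p in liver, with few counts.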
